A study of Mus musculus with 52 samples.

Results

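The 15 arrays described here hold bone marrow RNA of female BALB/c mice that carry the MMTV-NeuT transgene: 6 NeuT+ mice killed at 24 weeks and 9 NeuT+ mice killed at 6 weeks, taken by the genotype and age in their labels, out of 52 arrays in all. The transgene is an activated rat Erbb2 under a mouse mammary tumor virus promoter, which is active chiefly in mammary epithelium, so that marrow cells meet a growing mammary cancer without being the tissue the promoter is chosen for. The other mice were 9 NeuT+ mice of 12 weeks and non-transgenic NeuT- mice, 5 at 24 weeks, 9 at 12 weeks and 9 at 6 weeks, and 5 further arrays held a reference RNA that is not used here. All 6 mice of 24 weeks were graded as advanced carcinoma with a recorded tumor burden above 0. Of the 9 mice of 6 weeks, 2 were graded as mild or moderate dysplasia, 1 as severe dysplasia and 2 as early carcinoma, 1 grade was pending and 3 were entered as no. The 6-week burden was 0 in 3 mice, above 0 in 3 and not given in 3. The comparison therefore joins age with tumor stage, and the NeuT- mice of the same ages show the change with age in mice without the transgene. The labels grade NeuT- mice too. At 6 weeks NeuT- mice 1 to 5 were graded as mild or moderate dysplasia and mouse 6 as normal, and mice 7 to 9 were entered as no. At 24 weeks NeuT- mice 1 to 5 were graded as normal.

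Adult marrow makes red cells, platelets, granulocytes, monocytes and B cells from stem cells that lie in a niche of stromal, bone-forming and endothelial cells. B cells pass through pro-B and pre-B stages that depend on interleukin 7 and on the transcription factor Ebf1, red cell precursors switch on globin, heme and membrane genes under Gata1 and Klf1, and neutrophils lay down primary, then secondary granules before they become mature cells with receptors for chemokines and growth factors. Growing mammary carcinomas in mice, this model among them, are known for raised granulocyte output from the marrow. Each array reads RNA of the whole marrow, in which fewer cells of a type and less RNA per cell cannot be told apart.

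Whole-array measures separated the ages. Between 14578 and 15818 probes were detected in the 24-week mice and between 15168 and 16820 in the 6-week mice. The first principal component of the 15 arrays carried 51.2% of the variance, with scores of 20.2 to 55.9 at 24 weeks and of -27.8 to -19.2 at 6 weeks. Pairs of 24-week arrays had a median correlation of 0.981 over genes, pairs of 6-week arrays 0.989, and pairs across the ages 0.967. Mouse 2 of the 24-week group stood apart: it had the highest score on that component and the widest interquartile range of relative log expression, 0.714. Mouse 5 of that group, which had the lowest recorded tumor burden of the 6, correlated better with the 24-week NeuT- mean (0.993) than with the mean of the other 24-week NeuT+ mice (0.989). Mouse 6, which had the highest recorded burden, correlated best with its own group (0.994), and its score of 38.0 was below that of mouse 2. A relation to burden was not tested. Among 24-week NeuT- mice, mouse 1 correlated better with the 12-week NeuT- mean (0.991) than with its own group (0.978). NeuT- mouse 4 of 24 weeks correlated slightly better with the 24-week NeuT+ mean (0.993) than with its own group (0.992). NeuT- mice 2, 3 and 5 of 24 weeks correlated best with their own group. Titles carry an animal number whose first digits form number series; the meaning of a series is not given in the labels. Mice 1 and 2 of 24 weeks and mice 1 to 3 of 6 weeks were in series 12, mice 3 to 6 of 24 weeks in series 13, and the other 6-week mice in series 14 and 17, so only series 12 held both ages. Defining genes of marrow lineages were detected on all 15 arrays: Mpo and Elane of early granulocytes, Ltf and Camp of later ones, Vpreb1 of pre-B cells, and Alas2 and Slc4a1 of red cell precursors. Mpo, Ltf and Camp sat at the top of the measured range in all 15 mice, from 15.34 to 16.01 on the log2 scale against a maximum of 16.01 for any gene, so a rise in them could hardly be seen. Their log2 fold changes were 0.05, -0.01 and 0.15, none past the threshold.

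Of 11309 genes, 5307 passed an adjusted p of 0.05 at 24 against 6 weeks (limma, Benjamini-Hochberg), which is 46.9% of the genes tested: 2431 were higher (21.5%) and 2876 lower (25.4%). In NeuT- mice the same contrast called 1209 genes (10.7%). With number series as a block the NeuT+ count was 4734, of which 3908 were also in the first count, and within series 12, with 2 mice of 24 weeks and 3 of 6 weeks, it was 3235. The change was over 2-fold for 308 of the higher and 440 of the lower genes. Ranges of the 2 groups did not overlap for 2112 genes (18.7%), 1026 of them higher (9.07%) and 1086 lower (9.6%). In NeuT+ mice the step from 6 to 12 weeks called 634 genes (5.61%) and the step from 12 to 24 weeks 4604 (40.7%); both steps share samples with the main contrast. The count for the first step was 407 without 6-week mouse 8 and 414 without 6-week mouse 9, both of series 17, and with number series as a block it was 487, of which 194 were among the 634. The change with age differed between NeuT+ and NeuT- mice for 547 genes (4.84%), 178 with a higher difference (1.57%) and 369 with a lower one (3.26%). That count depended on single mice: it was 346 without NeuT+ mouse 2, 855 without NeuT+ mouse 5 and 333 without NeuT- mouse 1 of the 24-week groups. With only series 13 kept at 24 weeks in both genotypes it was 166. Scaling also bore on direction: 45.8% of the main calls were higher, with a median log2 fold change over all genes of -0.03, and under median scaling 30.0% of 4787 calls were higher, with a median of -0.13. The split of the difference between genotypes moved further, to 31 higher and 349 lower.

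Genes of B-cell development fell as a block. Of 18 measured members 17 were lower and 0 higher at 24 weeks, with a median log2 fold change of -2.38, and in those 17 the groups did not overlap. Cd79b, a signaling chain of the B-cell receptor, had log2 levels of 10.46 to 12.66 (median 11.74) in the 24-week mice, against 14.03 to 14.43 (median 14.21) in the 6-week mice. Every 24-week mouse lay below every 6-week mouse, and the mean was 5.88-fold lower (log2 fold change -2.55 ± 0.20 SE, adjusted p = 1.6e-13). Ebf1, the factor that commits progenitors to the B lineage, read 7.01 to 8.08 (median 7.72) at 24 weeks, against 9.56 to 9.96 (median 9.78) at 6 weeks. It was 4.34-fold lower, also without overlap (adjusted p = 1.6e-13). Blk, a B-cell Src-family kinase, and Fcrla, an Fc receptor-like protein of B cells, had log2 fold changes of -2.71 and -2.54. Vpreb1, part of the surrogate light chain that tests the heavy chain in pre-B cells, ranged over 9.18 to 11.33 (median 10.62) at 24 weeks and 11.94 to 12.80 (median 12.60) at 6 weeks (log2 fold change -1.94).

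The fall of B-lineage genes was larger in NeuT+ than in NeuT- mice. The median log2 fold change of the 18 members was -0.75 in NeuT- mice, and the difference of the changes passed the threshold, as a larger fall in NeuT+, for 15 of 18 members. Cd79b had a log2 fold change of -0.70 in NeuT- mice and differed by -1.85 ± 0.29 (adjusted p = 1.3e-04). The difference was -1.45 for Ebf1, -1.82 for Blk and -1.75 for Fcrla, and these 4 passed the threshold under every alternative tried. Vpreb1 had a difference of -1.33 that missed it (adjusted p = 0.055). With series 13 alone at 24 weeks in both genotypes, 11 of the 18 differences passed, with a median of -1.20. From 6 to 12 weeks the median change was -0.51 and 6 members passed, and with number series as a block it was -0.52 and 0 passed in limma's test (8 at an unadjusted p under 0.05). Within series 12 alone 17 members were lower as well, with a median of -2.90.

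**Figure D1:**
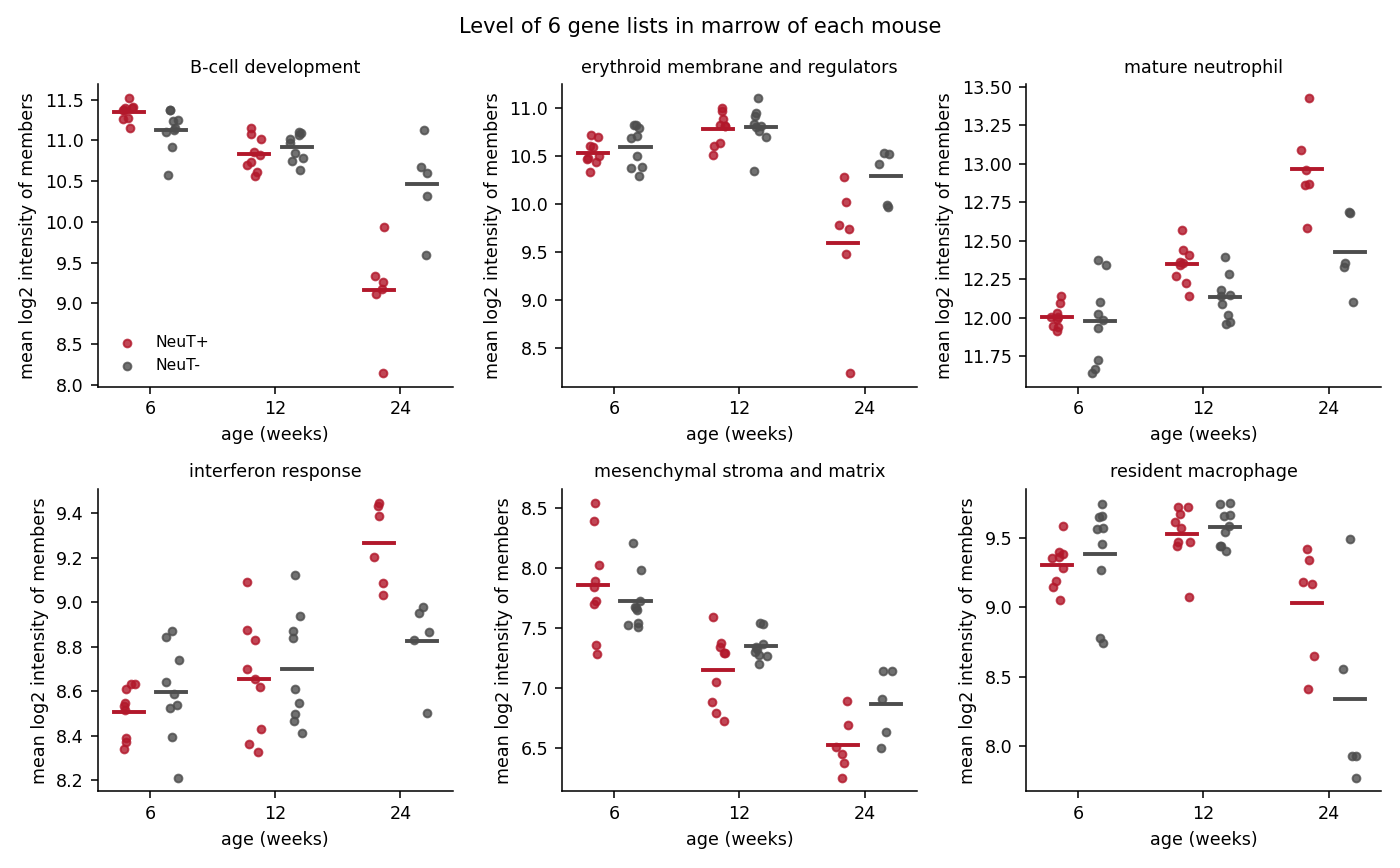
Mean log2 intensity of the measured members of 6 gene lists (vertical axes, each with its own range) in each mouse, by age in weeks, with NeuT+ mice left of NeuT- mice at each age; points are mice and bars are group means. The B-cell level of NeuT+ mice at 24 weeks lay between 8.14 and 9.94, below all 6-week mice, and the mature neutrophil level of the same mice, between 12.58 and 13.43, lay above all 6-week NeuT+ mice.

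Other antigen-presenting genes moved in part with B-cell genes. H2-Ob, a nonclassical MHC class II chain that B cells make, was detected in 1 of 6 mice at 24 weeks and in 9 of 9 at 6 weeks. Its log2 levels were 4.87 to 7.03 (median 5.62) at 24 weeks and 7.66 to 8.72 (median 8.14) at 6 weeks, with no overlap (log2 fold change -2.48, adjusted p = 2.3e-11). Of 9 MHC class II genes 5 were lower, among them the class II regulator Ciita (-1.13), the invariant chain Cd74 (-0.60, with 1 of its 3 probes opposed) and the class II chain H2-Ab1 (-0.62), and 4 did not pass. Of 9 dendritic cell genes 5 were lower and 1 higher. Tcf4, a factor needed for plasmacytoid dendritic cells that is also made in the B lineage, fell (-1.01 ± 0.10 SE) and fell more than in NeuT- mice (difference -0.72, adjusted p = 0.0013). The plasmacytoid receptor Siglech had a log2 fold change of -0.86, and Ly6d, a surface marker of early B-lineage and of plasmacytoid cells, one of -1.53.

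Plasma cell genes split. Immunoglobulin heavy chain Ighg1 had the largest rise of all called genes. It read 10 to 12.32 (median 11.90) in the 24-week mice, against 5.77 to 6.67 (median 6.22) in the 6-week mice, 38.8-fold higher (log2 fold change 5.28 ± 0.30 SE, adjusted p = 1.0e-17), without overlap. The NeuT- mice showed a log2 fold change of 4.66, and a difference between genotypes of 0.61 ± 0.44 did not pass (adjusted p = 0.47). Tnfrsf17, the receptor for the plasma cell survival factor BAFF and its relative APRIL, was detected in 3 of 6 mice at 24 weeks and in none of 9 at 6 weeks, at least 1.12-fold higher (adjusted p = 4.6e-10). Xbp1, the factor of secretory expansion, rose by 0.53 on the log2 scale. Of 11 measured members 6 were higher and 4 lower, and the lower ones included Mzb1 (-1.61), a chaperone of marginal zone B and plasma cells, Irf4 (-2.16), a factor of activated B cells and plasma cells, and Slamf7 (-2.38), a surface receptor of several lymphoid lineages. Mzb1 and Irf4 fell more in NeuT+ than in NeuT- mice, by -1.24 and -1.61.

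**Figure D2:**
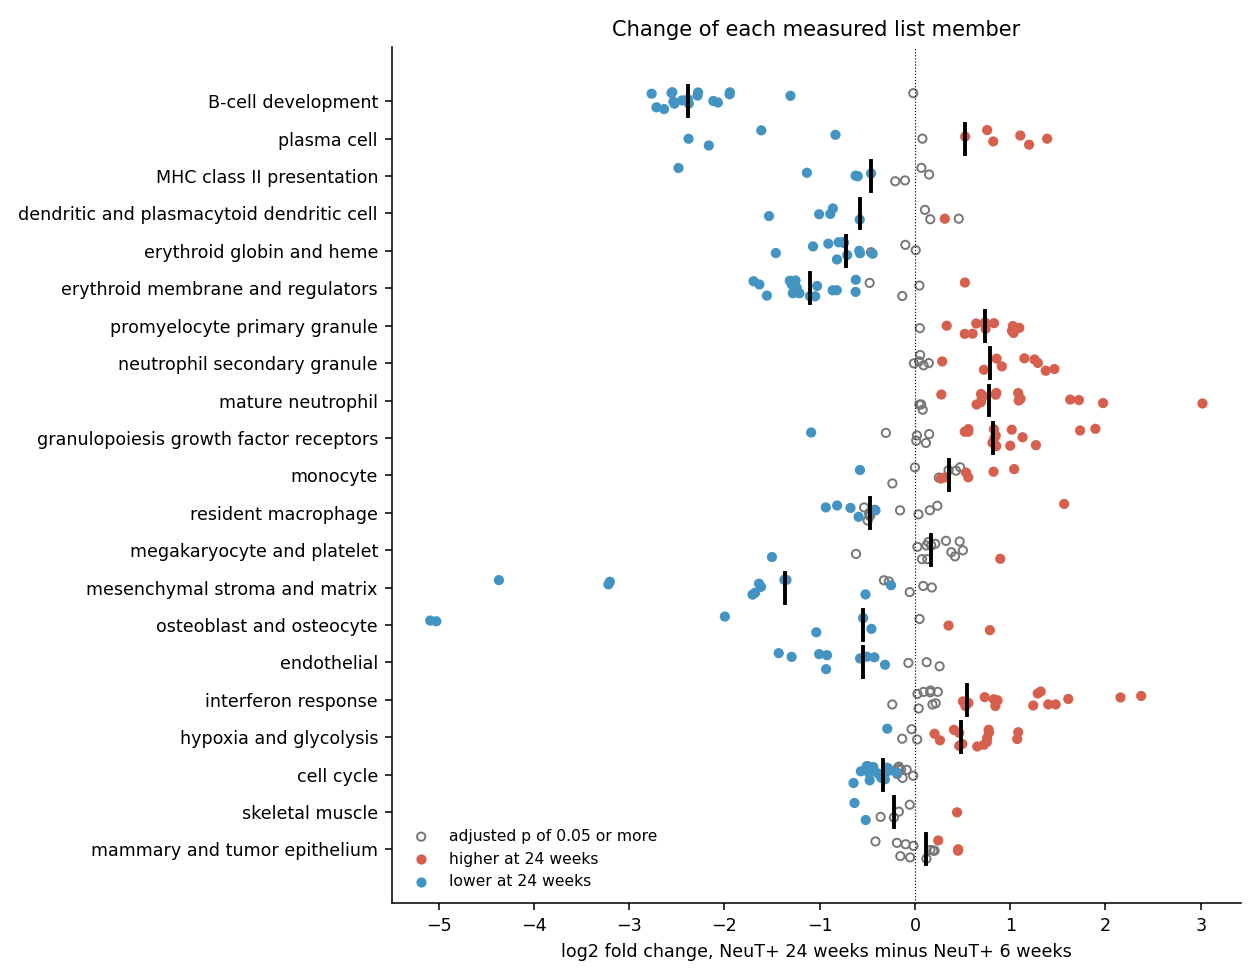
Log2 fold change (24 minus 6 weeks, NeuT+ mice, horizontal axis) of each measured member of 21 gene lists (rows); filled points passed an adjusted p of 0.05, red where higher and blue where lower at 24 weeks, open points did not pass, and the black bar is the list's median. The B-cell row has 17 blue points and a median of -2.38, and the mature neutrophil row 15 red points and a median of 0.78.

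Red cell genes fell too, less far and with more spread between mice. Of 21 measured genes of the erythroid membrane and its regulators 17 were lower and 1 higher, with a median of -1.10, and of 14 globin and heme genes 11 were lower and 0 higher, with a median of -0.73. Slc4a1, the band 3 anion exchanger of the red cell membrane, read 9.68 to 12.86 (median 12.47) at 24 weeks, against 13.34 to 14.34 (median 13.63) at 6 weeks. Its lowest value belonged to mouse 2, and the other 5 mice of 24 weeks, at 12.14 to 12.86, also lay below all 6-week mice (log2 fold change -1.69 ± 0.27 SE, adjusted p = 1.0e-06). Klf1, the master factor of red cell genes, ranged over 8.62 to 11.57 (median 10.75) at 24 weeks and 11.60 to 11.97 (median 11.80) at 6 weeks, without overlap (log2 fold change -1.31). Alas2, the rate-limiting enzyme of heme synthesis in red cells, had 7.83 to 11.04 (median 10.29) at 24 weeks and 10.68 to 12.20 (median 11.60) at 6 weeks, and these ranges overlapped (log2 fold change -1.46, adjusted p = 2.9e-04). Alad, the next enzyme of the pathway, changed by -1.07, the transferrin receptor Tfrc by -0.75, and Epor, the erythropoietin receptor, by -0.82. Bcl11a, known for silencing fetal globin and also made in B-cell progenitors, changed by -1.55.

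Mouse 2 carried part of the erythroid change. Its level over the 21 membrane and regulator genes was 8.24, against 9.48 to 10.28 in the other 24-week mice and 10.33 to 10.71 in the 6-week mice. Without it the median was -0.78 with 16 members lower, and the globin and heme median was -0.53 with 11 lower. In NeuT- mice the medians were -0.32 and -0.29. Of both lists Bcl11a alone had a difference between genotypes past the threshold, which it lost under 13 of 43 alternatives, leaving out mouse 2 being 1 of these. At an unadjusted p under 0.05 the difference passed for 15 of 21 and 7 of 14. With series 13 alone at 24 weeks in both genotypes it passed at that level for 2 of 21 and 2 of 14. In limma's test with adjustment it then passed for 0 of either list. Erythroid membrane genes had not fallen by 12 weeks, when 0 of 21 passed in limma's test (3 at an unadjusted p under 0.05) and the median was 0.28. Genes of the stress response to anemia moved in both directions: of 14, 4 were higher and 6 lower, where 21.5% of all genes were higher and 25.4% lower. Bmp4, a signal of stress erythropoiesis in the mouse spleen, was detected in none of 6 mice at 24 weeks and in 8 of 9 at 6 weeks, at least 1.13-fold lower (adjusted p = 3.8e-07). Bmpr1a, one of its receptors, rose by 1.82 on the log2 scale.

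Red cell genes are known to be bound by Gata1, and the start-site regions of Alas2 and Epor are shown as genes that fell and hold a match to its site; Klf1, Alad and Tfrc fell and hold none. RefSeq promoters (GRCm38.p6) were read over the 250 bases before each start for the letters AGATAA, the core of a GATA site, on both strands (TTATCT on the strand shown). They occur in 11.4% of 27025 genes with a promoter, in 4 of 13 called erythroid membrane and regulator genes that have a promoter and in 1 of 9 called globin and heme genes, Alas2. Of the members that did not pass, 1 of 2 and 0 of 3 hold one. The match ends 80 bases before the start in Alas2. Capitals mark the match in each sequence, printed 5′ to 3′ on the gene's own strand.
Alas2, chrX:150547167-150547416, plus strand: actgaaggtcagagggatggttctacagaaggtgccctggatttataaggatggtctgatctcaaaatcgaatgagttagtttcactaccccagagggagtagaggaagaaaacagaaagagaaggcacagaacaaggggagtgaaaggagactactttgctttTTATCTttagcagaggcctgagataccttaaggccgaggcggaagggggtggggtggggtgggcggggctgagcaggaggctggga
Epor, chr9:21963577-21963826, minus strand: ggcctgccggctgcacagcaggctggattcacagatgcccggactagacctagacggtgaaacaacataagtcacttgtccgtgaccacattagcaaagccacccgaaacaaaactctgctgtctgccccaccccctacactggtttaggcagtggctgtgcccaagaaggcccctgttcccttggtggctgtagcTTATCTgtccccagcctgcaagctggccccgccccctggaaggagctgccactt

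Neutrophil genes rose at all stages of maturation. Of 13 measured primary granule genes 12 were higher, of 14 secondary granule genes 9 and of 18 mature neutrophil genes 15, with none lower, and the medians were 0.74, 0.79 and 0.78. Ms4a3, a cell cycle regulator of granulocyte and monocyte progenitors, ran at 13.74 to 14.11 (median 13.93) in the 24-week mice, against 12.97 to 13.39 (median 13.18) in the 6-week mice, with no overlap (log2 fold change 0.74 ± 0.08 SE, adjusted p = 8.5e-10). Ctsg, the granule protease cathepsin G, changed by 0.83, Cst7, a protease inhibitor, by 1.03, and Hp, haptoglobin, by 1.02. Olfm4, a glycoprotein of a subset of neutrophils, read 12.41 to 12.92 (median 12.75) at 24 weeks and 11.25 to 11.72 (median 11.37) at 6 weeks (log2 fold change 1.29). Orm1, the acute-phase protein orosomucoid, read 12.46 to 13 (median 12.77) at 24 weeks and 11.03 to 11.44 (median 11.30) at 6 weeks, 2.76-fold higher. In both genes all 24-week mice stood above all 6-week mice.

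Genes of mature or activated neutrophils were among the largest rises. Prok2, a prokineticin that neutrophils secrete, had 10.32 to 13.36 (median 11.21) in the 24-week mice and 7.60 to 9.02 (median 8.31) in the 6-week mice. It was 8.10-fold higher (adjusted p = 2.8e-09), without overlap and with mouse 2 highest. Cxcr1, a chemokine receptor of neutrophils, was detected in 6 of 6 mice at 24 weeks and 2 of 9 at 6 weeks, a group mostly at background, and its mean was 9.62-fold higher. Clec4e, a receptor for fungal and mycobacterial glycolipids, rose by 1.97 on the log2 scale. Acod1, the enzyme that makes itaconate, read 8.67 to 10.32 (median 9.80) at 24 weeks and 6.57 to 7.5 (median 6.96) at 6 weeks (log2 fold change 2.66 ± 0.24 SE, adjusted p = 5.9e-12). Wfdc17, a secreted inhibitor of inflammation in myeloid cells, read 11.25 to 14.08 (median 12.31) at 24 weeks and 8.92 to 9.95 (median 9.30) at 6 weeks. Il1r2, the decoy receptor for interleukin 1, rose by 1.99. Of 17 genes linked to suppressive myeloid cells 12 were higher and 0 lower, with a median of 0.78.

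Receptors and factors of granulocyte production moved with them: of 20, 14 were higher and 1 lower, with a median of 0.82. Csf2rb2, a receptor chain for interleukin 3 in mice, had 8.51 to 9.46 (median 8.82) at 24 weeks and 6.74 to 7.54 (median 7.22) at 6 weeks, without overlap (log2 fold change 1.73, adjusted p = 5.3e-10). Socs3, the feedback inhibitor of G-CSF and interleukin 6 signaling, read 9.90 to 12.22 (median 10.75) and 8.40 to 9.46 (median 8.83) at the same ages, 3.72-fold higher. Spi1, the PU.1 factor of myeloid cells, changed by 1.13 and Itgam, the integrin chain of CD11b, by 1.00. Part of this was set apart from NeuT- mice, where the 3 granule and neutrophil medians were 0.39, 0.24 and 0.38. The difference of the changes passed for 1, 2 and 3 genes of these lists, and for 6 of the 17 suppressive myeloid genes. With series 13 alone at 24 weeks in both genotypes it passed for 0, 1 and 1 genes and for 2 of 17, and under median scaling for 0, 0 and 2 genes and for 3 of 17, by limma's test. At an unadjusted p under 0.05 these counts were 4, 4 and 5 genes and 7 of 17 with series 13 alone, and 2, 2 and 7 genes and 7 of 17 under median scaling. Without NeuT+ mouse 2 it passed for 1 secondary granule gene and for 4 of 17, and without NeuT- mouse 1 for the same numbers. It was 2.34 for Prok2, 1.92 for Acod1, 1.34 for Csf2rb2 and 1.33 for Il1r2, 4 genes that passed under every alternative. Cxcr1, with a difference of 1.77 (adjusted p = 0.041), and Wfdc17, with 1.69 (adjusted p = 0.047), lost the call without mouse 2. Of 43 alternatives, Cxcr1 lost it under 19 and Wfdc17 under 25.

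**Figure D3:**
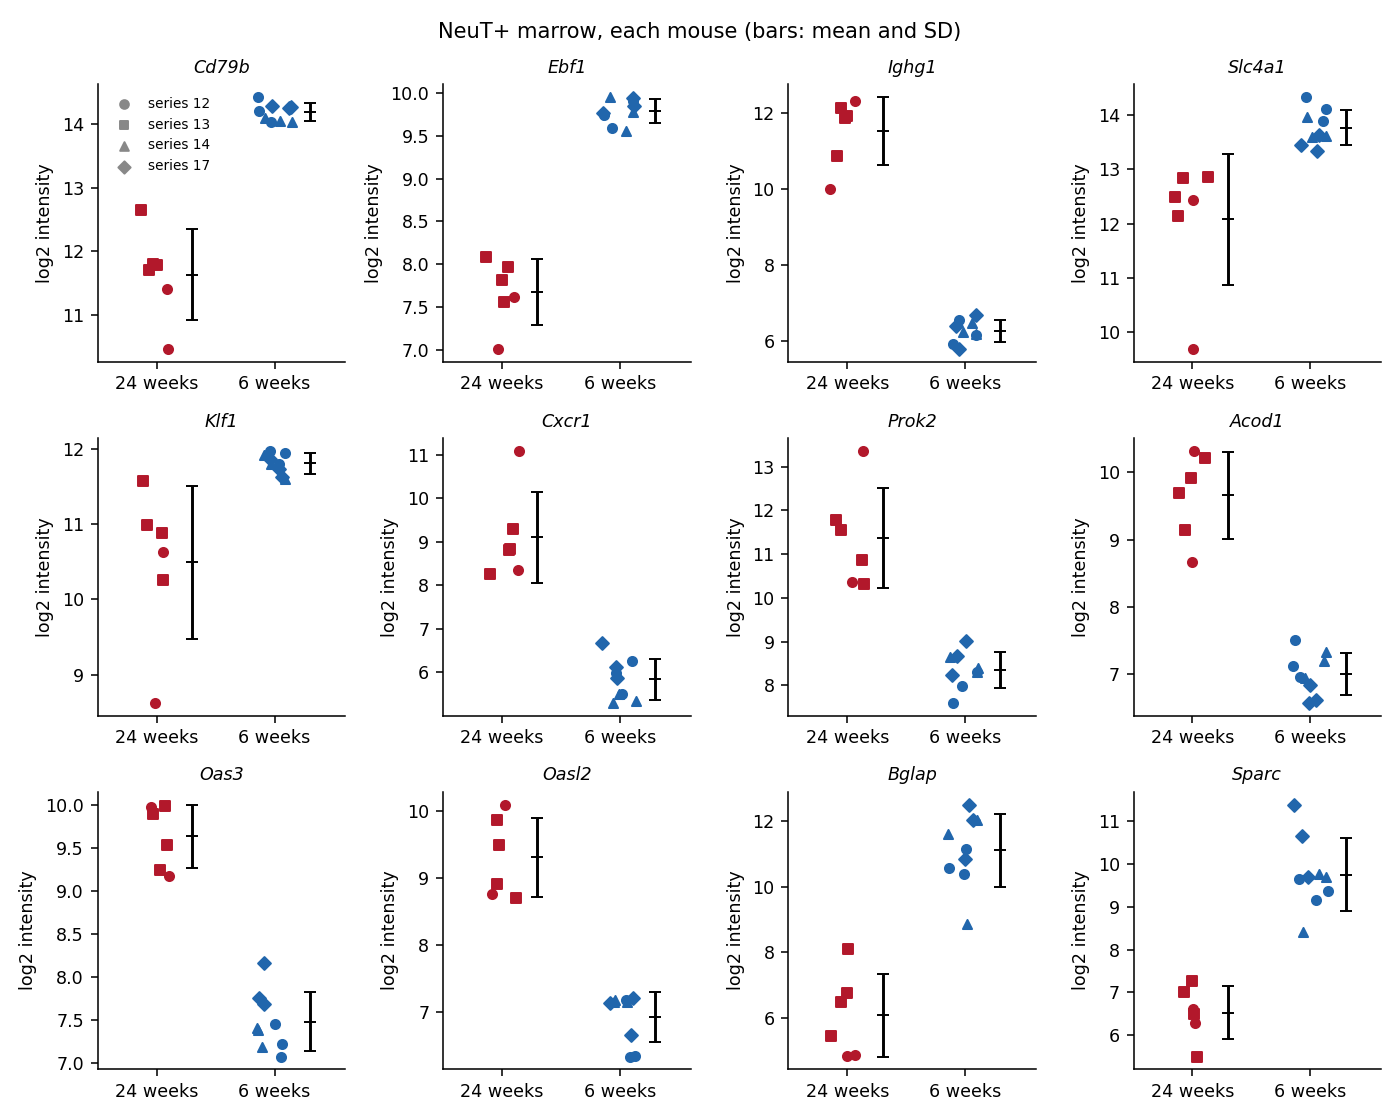
Log2 intensity (vertical axes) of 12 named genes in each NeuT+ mouse, 24 weeks left and 6 weeks right; marker shapes are number series and black bars the mean with its SD. The groups did not overlap in any of the 12, and in Slc4a1 and Klf1 1 mouse of 24 weeks lay far below the other 5.

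Other large rises were in genes with roles outside granules. Upp1, uridine phosphorylase, read 11.46 to 13.13 (median 12.10) in the 24-week mice and 8.52 to 9.5 (median 9.15) in the 6-week mice, 7.97-fold higher, and rose more than in NeuT- mice (difference 1.98, adjusted p = 6.3e-04). Mcam, the adhesion molecule CD146, was detected in 6 of 6 mice at 24 weeks, against 1 of 9 at 6 weeks. Its log2 fold change was 2.73 in NeuT+ and 0.37 in NeuT- mice, a difference of 2.36 (adjusted p = 8.0e-04). Tgm1, a transglutaminase, showed the same form, with 1.90 in NeuT+ and 0.03 in NeuT- mice (difference 1.88, adjusted p = 0.0011). Mcam and Tgm1 kept the difference under all alternatives, and Tgm1 missed the threshold for age itself within series 12. Ambp, a precursor of a protease inhibitor and a lipocalin, was detected in 5 of 6 mice at 24 weeks and none of 9 at 6 weeks, at least 2.45-fold higher (adjusted p = 1.6e-09). Chst1, a sulfotransferase, rose by 2.46 and Stap2, a signaling adaptor, by 2.22. Cstdc6, a member of the stefin protease inhibitors, rose by 2.39. The stefin genes are a family of near copies, so the Cstdc6 probe may read more than 1 of them.

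Interferon-response genes were higher in part. Of 26 measured members 16 were higher and 0 lower, with a median of 0.55, and in 13 of them the groups did not overlap. Oas3, which makes the signal that activates the antiviral RNase L, read 9.17 to 9.99 (median 9.71) in the 24-week mice, against 7.07 to 8.16 (median 7.40) in the 6-week mice. It was 4.46-fold higher (log2 fold change 2.16 ± 0.29 SE, adjusted p = 4.6e-08). Oasl2, a related protein, read 8.71 to 10.10 (median 9.20) at 24 weeks, against 6.34 to 7.22 (median 7.15) at 6 weeks, 5.19-fold higher. Oas2 rose by 1.48 on the log2 scale. Oas1a, one of several close copies that its probe may not tell apart, was detected in 4 of 6 mice at 24 weeks and none of 9 at 6 weeks, at least 1.28-fold higher. Mean levels over the list were 9.03 to 9.45 in the 24-week mice and 8.34 to 8.63 in the 6-week mice. Not all classical members took part: 10 did not pass, and Mx1 and Mx2, named after their values were seen, had log2 fold changes of 0.09 and -0.24.

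NeuT- mice had an interferon median of 0.19 with 0 of 26 members past the threshold of limma's test (2 at an unadjusted p under 0.05), and the difference of the changes passed for 6 of 26, all higher in NeuT+. It was 1.12 for Oas1a (adjusted p = 0.0045), 1.42 for Oas3 (0.037) and 1.45 for Oasl2 (0.043). These calls were few under median scaling, where 1 of 26 passed, and once mice were left out: 1 of 26 passed without NeuT+ mouse 2 and 1 without NeuT- mouse 1. With series 13 alone at 24 weeks in both genotypes 0 of 26 passed in limma's test (9 at an unadjusted p under 0.05), with a median difference of 0.41 against 0.47 in all mice. The rise with age in NeuT+ mice itself counted 16 members without mouse 2, and 13 within series 12, where the median was 0.74.

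The promoters of 3 called members, Oas1a, Oas3 and, chosen after its value was seen, Isg15, a ubiquitin-like protein (1.32), are shown for the element that interferon-activated factors bind. It was searched as GAAA, any 2 bases and again GAAA on both strands of the 250 bases before the start, where overlapping matches were each counted, and the matches are in capitals. They occur in 3.46% of 27025 genes. They occur in 7 of the 12 called members that have a promoter and in 5 of the 7 that did not pass, so the match did not set the called members apart.
Oas1a, chr5:120907526-120907775, minus strand: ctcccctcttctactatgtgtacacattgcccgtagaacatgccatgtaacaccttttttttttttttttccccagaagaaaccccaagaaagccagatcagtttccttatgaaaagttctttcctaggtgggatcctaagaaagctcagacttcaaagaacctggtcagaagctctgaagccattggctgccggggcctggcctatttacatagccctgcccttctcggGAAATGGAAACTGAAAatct
Oas3, chr5:120777660-120777909, minus strand: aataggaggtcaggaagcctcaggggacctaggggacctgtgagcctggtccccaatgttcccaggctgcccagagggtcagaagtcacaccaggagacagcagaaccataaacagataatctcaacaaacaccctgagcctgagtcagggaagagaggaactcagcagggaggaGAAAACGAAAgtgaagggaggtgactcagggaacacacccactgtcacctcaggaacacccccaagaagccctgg
Isg15, chr4:156200819-156201068, minus strand: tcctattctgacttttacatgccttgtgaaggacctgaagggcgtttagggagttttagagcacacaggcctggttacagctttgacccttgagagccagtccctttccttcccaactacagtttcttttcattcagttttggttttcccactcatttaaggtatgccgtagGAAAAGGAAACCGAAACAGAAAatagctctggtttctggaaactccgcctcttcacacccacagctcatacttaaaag

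Some genes of bone-forming cells and stroma had the largest falls of the genes named here. The medians of their lists fell less than the median of B-cell genes (-2.38). Bglap and Bglap2 encode osteocalcin, the hormone-like matrix protein of osteoblasts, and are near copies whose probes cannot be taken as separate readings. Bglap read 4.85 to 8.10 (median 5.96) in the 24-week mice, against 8.87 to 12.50 (median 11.14) in the 6-week mice, and was detected in 2 of 6 and 9 of 9. No 24-week mouse reached the lowest 6-week mouse (log2 fold change -5.02 ± 0.49 SE, adjusted p = 3.2e-11), and Bglap2 had a log2 fold change of -5.09. Col1a1, a chain of type I collagen, read 4.93 to 7.85 (median 5.48) at 24 weeks and 7.73 to 12.04 (median 10.03) at 6 weeks, with mouse 3 of 24 weeks just above the lowest 6-week mouse (log2 fold change -4.37). Sparc, a matrix protein of bone, had 5.5 to 7.26 (median 6.56) at 24 weeks and 8.40 to 11.38 (median 9.69) at 6 weeks, and Dcn, the proteoglycan decorin, 4.86 to 7.20 (median 5.28) and 7.48 to 9.93 (median 8.58). The proteoglycan Bgn changed by -1.35. Of 16 measured stroma and matrix genes 11 were lower and 0 higher (median -1.36), and of 9 osteoblast and osteocyte genes 6 were lower and 2 higher (0 higher without mouse 2; median -0.54). Ibsp, bone sialoprotein, and Sp7, the osterix factor of osteoblasts, were detected in none of 6 mice at 24 weeks and in 8 and 4 of 9 at 6 weeks. Ibsp was at least 1.86-fold lower, and no bound above 1 could be given for Sp7.

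Stromal genes were also lower at 12 weeks and in NeuT- mice. The stroma median was -1.07 from 6 to 12 weeks in NeuT+ mice and -1.03 from 6 to 24 weeks in NeuT- mice, where 7 of 16 passed. The 12-week median was -0.63, with 2 of 16 passing, without the 6-week mice of series 17. A difference between genotypes passed for Col1a1 (-2.85, adjusted p = 0.025), Bglap (-3.12) and Bglap2 (-3.13), and each was lost with series 13 alone at 24 weeks in both genotypes. Series bore on these genes within an age: mice 8 and 9 of 6 weeks, from series 17, had the highest stroma levels. Within series 12 alone 3 of 16 stroma members were lower, with a median of -0.56. How much bone surface came out with the marrow of each mouse was not tested.

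Vessel and fat genes went the same way. Of 12 endothelial genes 9 were lower and 0 higher, with a median of -0.54, and of 6 adipocyte genes 5 were lower. Emcn, endomucin of marrow sinusoids and bone vessels, was detected in none of 6 mice at 24 weeks and in 9 of 9 at 6 weeks, at least 1.69-fold lower (adjusted p = 7.4e-09). The guidance receptor Robo4 (-1.43), the junction protein Pecam1 (-0.93) and the scavenger receptor Stab2 (-0.92) were lower too. Adipoq, the fat cell hormone adiponectin, read 5.21 to 6.91 (median 5.57) at 24 weeks and 6.30 to 8.06 (median 7.66) at 6 weeks, with a NeuT- log2 fold change of -1.51. Scd1, the enzyme that desaturates stearate, which blood cells also make, read 6.05 to 9.98 (median 8.73) and 10.26 to 11.22 (median 10.51), and its fall was larger than in NeuT- mice by -1.87 (adjusted p = 0.0029).

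Macrophage genes had a median change nearer 0 in NeuT+ than in NeuT- mice. Of 16 genes of resident macrophages 5 were lower and 1 higher in NeuT+ mice, with a median of -0.47, and in NeuT- mice 11 passed, with a median of -1.33. Spic, the factor of red pulp and marrow macrophages that recycle iron, read 6.50 to 8.14 (median 7.26) in the 24-week mice and 7.91 to 8.63 (median 8.28) in the 6-week mice (log2 fold change -0.94; -1.67 in NeuT-). The mannose receptor Mrc1 changed by -0.82 and by -1.27, and Axl, a receptor for dying cells, by -0.68 and by -1.59, in NeuT+ and in NeuT- mice. Vsig4, a complement receptor of resident macrophages, was detected in 5 of 6 mice at 24 weeks and 1 of 9 at 6 weeks, with levels of 6.22 to 8.17 (median 7.59) against 4.48 to 6.2 (median 5.86) (log2 fold change 1.57, adjusted p = 1.4e-05). The difference of the changes passed for 3 of 16, all higher in NeuT+. It passed for 10 of 16 without NeuT- mouse 1, and for 9 with series 13 alone at 24 weeks, with a median difference of 1.33. Under median scaling it passed for 0 of 16 in limma's test (8 at an unadjusted p under 0.05), with a median of 0.62. The count of 5 lower members in NeuT+ mice was not stable: it was 1 with number series as a block, 2 without mouse 5, 3 without mouse 2, 8 without mouse 3 or without mouse 4, 10 with the immediate early level as a covariate and 11 under median scaling. The list level was 8.41 to 9.42 at 24 weeks, where mice 2 and 5 were lowest, and 9.05 to 9.59 at 6 weeks.

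**Figure D4:**
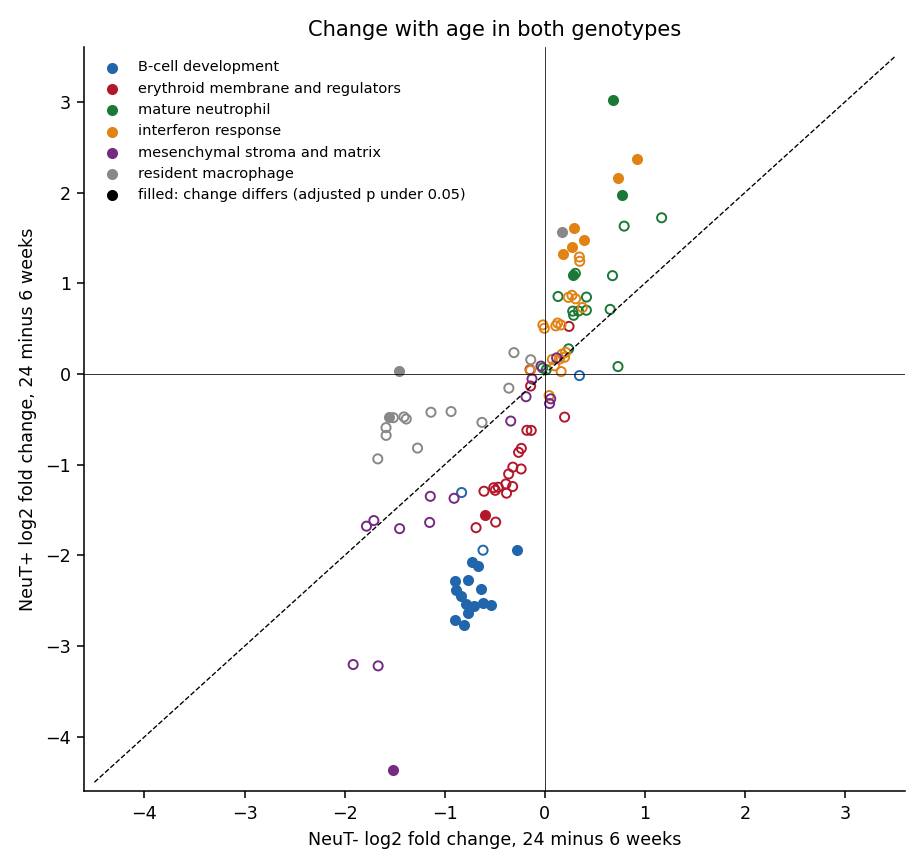
Log2 fold change from 6 to 24 weeks in NeuT+ mice (vertical axis) against that in NeuT- mice (horizontal axis) for the members of 6 lists; filled points have a difference of the changes past an adjusted p of 0.05, and the dashed line marks equal change. B-cell genes such as Blk, at -2.71 in NeuT+ and -0.90 in NeuT- mice, lay below the line, and most macrophage genes lay above it.

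Other blood lineages moved less or in both directions. Over all genes 21.5% were higher and 25.4% lower, so counts near these shares do not set a list apart. Of 13 monocyte genes 6 were higher and 1 lower: Ccr2, the receptor that brings monocytes out of marrow, read 8.08 to 9.26 (median 8.64) at 24 weeks and 7.29 to 8.06 (median 7.65) at 6 weeks (log2 fold change 1.04), Csf1r, the receptor for M-CSF, changed by 0.56, and Irf8, a factor of monocytes, dendritic cells and B cells, by -0.58. Without 24-week mouse 1, and likewise without 6-week mouse 8, 3 of the 13 were higher. Of 10 T and NK cell genes 3 were higher and 1 lower, and 5 were higher without mouse 2. Nkg7, a granule protein of cytotoxic cells that neutrophil precursors also express in mice, rose by 0.92, and the T-cell receptor chain Cd3d by 0.63. Of 15 megakaryocyte genes 1 was higher and 1, the matrix protein thrombospondin Thbs1 (-1.50), lower. Of 12 genes of eosinophils, basophils and mast cells 2 were higher and 4 lower, and 2 were lower without mouse 2, whose list level was 9.28 against 10.37 to 10.65 in the other 24-week mice. Prg2, an eosinophil granule protein, changed by -0.94, and did not pass with series 13 alone at 24 weeks. Hdc, the histamine-forming enzyme, which neutrophils also make, rose by 1.05 and more than in NeuT- mice (difference 0.82, adjusted p = 7.1e-04). Of 13 stem and progenitor genes 1 was higher and 5 lower, and 3 were higher and 3 lower without mouse 2. Sox4, a factor of progenitors and of pro-B cells, read 8.91 to 10.25 (median 9.26) at 24 weeks and 11.12 to 12.30 (median 12.12) at 6 weeks (log2 fold change -2.54), and Mllt3, which maintains stem cells, changed by -0.93.

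Genes of growth and metabolism formed opposed groups. Cell cycle genes were lower in 17 of 26 cases with none higher, by a small median of -0.33: Mcm4 (-0.64) and Mcm2 (-0.57), subunits of the replication helicase, E2f1 (-0.48), the S-phase factor, and Top2a (-0.43), a topoisomerase. The count was 12 with series 13 alone at 24 weeks and 10 within series 12. Glycolysis and hypoxia genes were higher in 14 of 18 cases, with 1 lower and a median of 0.48. Slc2a1, a glucose transporter, ran at 10.22 to 11.66 (median 10.60) in the 24-week mice, against 9.32 to 9.91 (median 9.58) in the 6-week mice (log2 fold change 1.08 ± 0.15 SE). The transporter Slc2a3 changed by 0.78, the aldolase Aldoa by 0.76 and Egln3, an oxygen sensor, by 1.07. Genes of the unfolded protein response were higher in 7 of 15 cases and lower in 1, with Chac1, which degrades glutathione, at 1.70 and the chaperone partner Sdf2l1 at 0.89. Of 14 ribosomal protein genes 9 were lower, by little, such as Rpl4 (-0.43), but 3 without mouse 2, 2 with series 13 alone at 24 weeks and 1 under median scaling. Of 16 oxidative phosphorylation genes 6 were lower, where 25.4% of all genes were lower. A difference between genotypes passed for 4 glycolysis genes (0 under median scaling in limma's test, 5 at an unadjusted p under 0.05). Slc2a1 and Aldoa were among them, and each lost the call under 18 of 43 alternatives, leaving out mouse 2 being 1 of these. For cell cycle genes 0 of 26 differences passed in limma's test (1 at an unadjusted p under 0.05).

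Some members of the chromatin and imprinted gene lists were lower. The chromatin list also holds Igf2bp3. Igf2bp3, a fetal RNA-binding protein, was detected in none of 6 mice at 24 weeks and all 9 at 6 weeks, at least 2.22-fold lower (adjusted p = 4.2e-12), and its NeuT- log2 fold change was -1.79. Of the 14 measured members of the polycomb and chromatin list 8, Igf2bp3 included, were lower and 1 was higher. Over all genes 25.4% were lower and 21.5% higher. The lower members also included the DNA methyltransferase Dnmt3b (-0.62) and the polycomb subunit Suz12 (-0.85), whose other probe went the other way. Of 7 imprinted growth genes 2 were lower, near the share of 25.4% of all genes: Cdkn1c, a cyclin kinase inhibitor (-1.13), and Peg3. Peg3, a paternally expressed zinc finger gene which was detected in 0 of 5 NeuT- mice at 24 weeks and 2 of 9 at 6 weeks, read 9.71 to 11.76 (median 10.05) at 24 weeks and 10.93 to 12.72 (median 12.18) at 6 weeks, in overlapping ranges (log2 fold change -1.50). Within series 12 the Peg3 log2 fold change from 6 to 24 weeks in NeuT+ mice was -0.80. Series 13, which held most 24-week mice, cannot be told apart from age here. Peg3 was detected in all 15 NeuT+ mice.

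The remaining large falls joined genes of several kinds. Srpk3, a protein kinase known from muscle, read 6.65 to 9.26 (median 8.14) in the 24-week mice and 10.74 to 11.51 (median 10.92) in the 6-week mice, and Chst3, a chondroitin sulfotransferase, 8.13 to 10.70 (median 9.63) and 12.14 to 12.74 (median 12.49). Neither overlapped. Tnfrsf19 (also TROY) changed by -2.95, Lgr5, a receptor for R-spondins, by -2.90, the matrix glycoprotein Reln by -2.41, the vesicle fusion protein Cplx2 by -3.00 and the locus 4930426D05Rik by -2.98. Klhl14, a protein of B cells, was detected in none of 6 mice at 24 weeks and in all 9 at 6 weeks, at least 3.46-fold lower. Apart from Cplx2, these genes fell more in NeuT+ than in NeuT- mice: by -2.28 for Reln, -2.25 for 4930426D05Rik, -2.17 for Srpk3, -2.09 for Chst3, -1.82 for Tnfrsf19 and -1.76 for Lgr5. Reln itself changed by -0.13 in NeuT- mice.

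Inflammatory genes divided by number series. Of 23 inflammatory and NF-kB genes 10 were higher and 3 lower, with a median of 0.55: the lipopolysaccharide receptors Tlr4 (0.85) and Cd14 (1.63) and the lipoprotein receptor Tlr2 (1.09) were higher. Within series 12 alone 4 were higher and 6 lower, with a median of -0.09. Immediate early genes, which respond within minutes to handling as well as to signals, had 3 members higher and 1 lower of 19, in overlapping ranges of the list level, 10.15 to 11.69 at 24 weeks and 9.55 to 11.54 at 6 weeks. Zfp36, which degrades cytokine mRNA, had a log2 fold change of 0.61 over all mice and of -0.33 within series 12. Ier3, a survival gene, changed by 1.02, and by 0.59 within series 12. Junb, an AP-1 factor, changed by 0.77, and by 0.07 within series 12. The part of series in these changes was not tested.

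Markers of other tissues stayed low. Krt8 and Krt18, keratins of simple epithelium, and the mouse Erbb2 probe were detected in none of the 15 mice, and 9 of 13 measured epithelial genes were detected in neither group. The summed raw signal of the 13 was 1399.8 to 2056.7 at 24 weeks and 1503.6 to 2359 at 6 weeks. The 3 called epithelial genes of 13, Krt7, Krt14 and Muc1, were higher, a count near the share of 21.5% of all genes. They were near background: Krt7 was detected in 2 of 6 and 2 of 9 mice, and Krt14 and Muc1 in none. Without mouse 4, 1 epithelial gene was called. The Erbb2 probe is designed on the mouse gene and does not check the rat transgene. Muscle genes had 1 member higher and 2 lower of 7, where 21.5% of all genes were higher and 25.4% lower. With any 1 of 24-week mice 4, 5 or 6 or 6-week mice 7 or 8 left out, 1 was lower. Their summed signals were 1227.9 to 1517.4 at 24 weeks and 1214.8 to 2789.9 at 6 weeks. Acta1, skeletal actin, was detected in 0 of 6 and 2 of 9 mice. The 6-week mice 7 and 8, of series 17, had the highest muscle levels, and the part of muscle in other results was not tested.

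The 6 mice of 24 weeks differed among themselves in degree, with mouse 2 and mouse 5 at opposite ends for B-cell genes. Over the 18 B-cell genes mouse 5 had a mean level of 9.94 and mouse 2 of 8.14, and the other 4 lay between 9.12 and 9.34, all below the 6-week range of 11.15 to 11.52. For mature neutrophil genes mouse 2 was highest at 13.43 and mouse 5 lowest at 12.58, above the 6-week range of 11.91 to 12.14. For red cell membrane genes mouse 2 was lowest at 8.24 and mouse 5 highest at 10.28. Primary granule genes varied little, from 13.27 to 13.50 at 24 weeks and from 12.57 to 12.77 at 6 weeks.

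**Figure D5:**
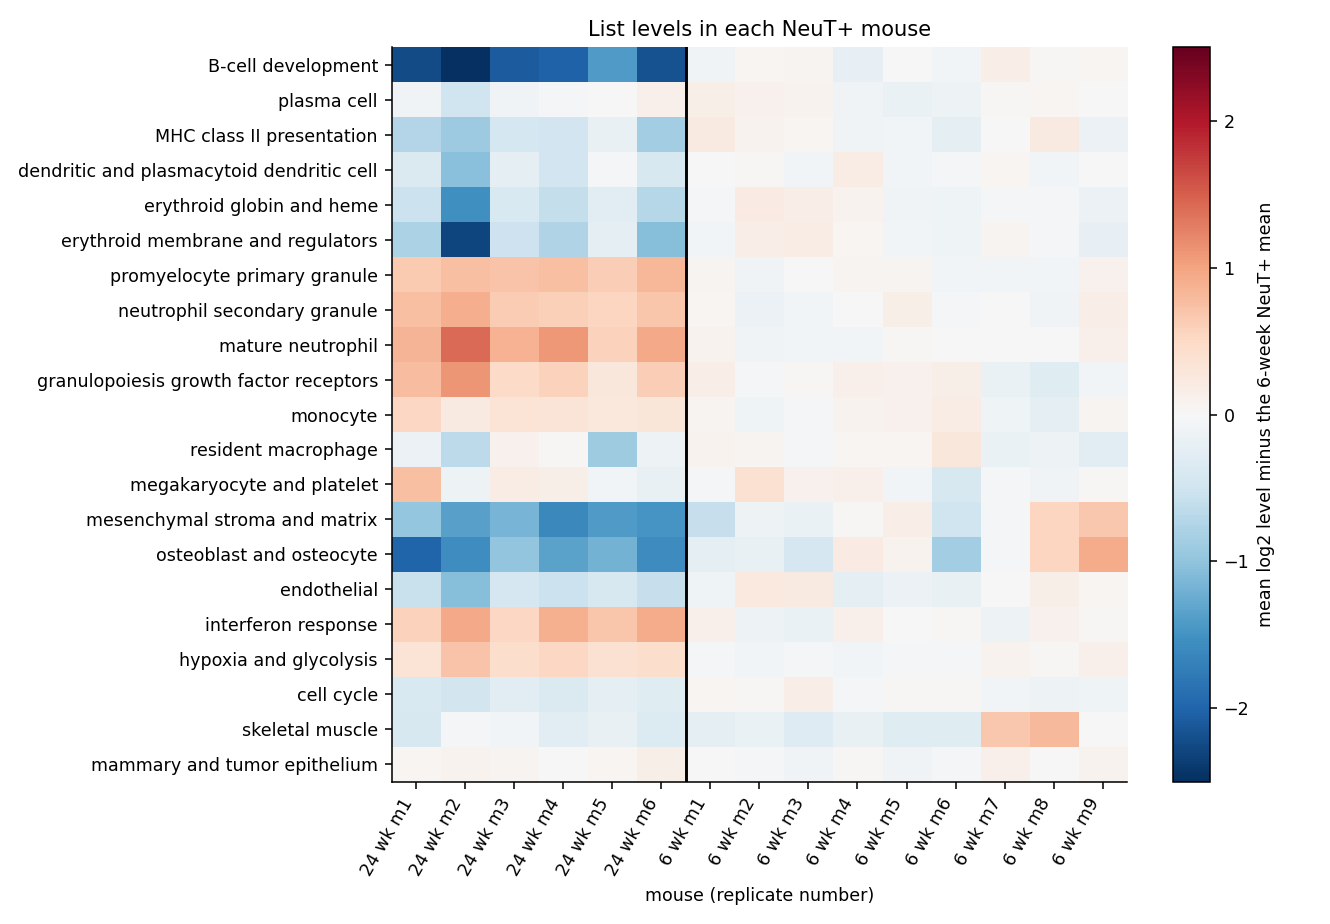
Mean log2 level of 21 gene lists (rows) in each NeuT+ mouse (columns: 24-week mice m1 to m6, then 6-week mice m1 to m9), as the difference from the 6-week NeuT+ mean; red is higher, blue lower, and colors stop at 2.5. B-cell, red cell and stroma rows were blue and granule and neutrophil rows red in the 24-week mice, with mouse 2 the deepest in B-cell and red cell rows.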

How the data were processed

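RNA from the marrow of 47 mice was hybridised to Illumina bead arrays (mouseWG-6 v2.0), 1 array a mouse. For each array the authors deposited a linear probe intensity with a detection p-value, from BeadStudio, and log2 intensities that lumi normalized by robust splines. These steps come from the design text and the submitters' processing notes, which give no lumi version here. Different amplification kits are named in the design text and in the labels. Of 45281 probes, 34885 had 1 symbol in the platform annotation, 18 several and 10378 none; symbols were updated through a RefSeq table (GRCm38.p6).

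The deposited intensities were corrected for background and quantile normalized in limma 3.58.1 (neqc, offset 16; R 4.3.3), and the deposited log2 values served as an alternative. A probe was kept if its detection p was below 0.01 on 1 or more of 52 arrays (21592 probes), and the brightest probe stood for each of 11309 genes. Ages were compared with limma's lmFit and eBayes in a fit of the 6 groups of mice without a block; the test of the difference between genotypes came from the same fit. Adjustment was by Benjamini and Hochberg across the whole table of genes, with a threshold of 0.05. On simulated arrays the procedure called 62% of 100 genes changed by 0.5 on the log2 scale and 91% of 100 changed by 1. It also called 7 unchanged genes. The simulation had no effect of number series and a far smaller share of changed genes than these data, so it does not cover those conditions. For a probe that no array of a group detected, a bound replaces the fold: the brighter group's mean against the dimmer group's mean of, per array, the higher of the probe's signal and the lowest signal called detected. Per the labels the mice are separate animals, and their number sets the precision.

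Named genes were the 12 largest rises and the 12 largest falls past the threshold that were detected on at least 50% of the arrays of the brighter group, the members with the smallest p in each list (up to 4), the 6 largest differences between genotypes in each direction, Peg3, Erbb2 and fixed cell type markers; not all are described. A gene outside this rule is marked as chosen after its value was seen. The groups, the 35 gene lists and the tests were chosen with earlier results of these data known. Lists are described by counts and medians, without a test of the list. Alternatives were other normalizations, filters, probe rules, blocks, covariates, array weights and left-out mice. Promoter sequences are from RefSeq (GRCm38.p6).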

Additional observations from a re-analysis of the deposited data

Results flagged for a closer look

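In 30 of 324 sets of values (a gene or list level in 1 age group of NeuT+ mice) a single mouse lay far from the others. The rule marks about 1 in 20 independent sets by chance. These sets share mice and genes, so their count cannot be set against that rate. Mouse 2 of the 24-week group was the outlying mouse most often. It was low in Slc4a1 (9.68), Alas2 (7.83), Alad (11.56), Epor (7.18), Mzb1 (10.65), Irf8 (9.65), Rpl4 (11.25) and Tnfrsf17 (5.42), and high in Cxcr1 (11.09), Cstdc6 (10.08), Ambp (9.56) and Acta1 (5.91), all log2 levels. It was also low in the mean level of the globin and heme list (9.94, against 10.76 to 11.21 in the other 5 mice), the plasma cell list (8.30), the eosinophil, basophil and mast cell list (9.28) and the endothelial list (7.20). Mouse 1 of 24 weeks was high in Bcl11a (10.56), Dcn (7.20) and the monocyte list (9.43), mouse 3 in Col1a1 (7.85) and mouse 5 in Sp7 (5.66). At 6 weeks mouse 1 was low in Adipoq (6.30) and in the adipocyte list (7.91), mouse 2 in Tgm1 (6.26), mouse 3 in Vsig4 (4.48), mouse 4 in Slamf7 (8.16), and mouse 8 in Irf8 (10.45) and Siglech (9). Mouse 7 of that age was high in Srpk3 (11.51) and mouse 4 in the dendritic cell list (8.43).

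The change from 6 to 24 weeks differed between NeuT+ and NeuT- mice, by limma's test of the difference over all 11309 genes, for 51 of the genes described; values are NeuT+ minus NeuT- log2 changes. Lymphoid and antigen-presentation genes fell more in NeuT+ mice: Blk (-1.82), Cd79b (-1.85), Fcrla (-1.75), Ebf1 (-1.45), Klhl14 (-1.95), H2-Ob (-1.67), Irf4 (-1.61), Mzb1 (-1.24), Slamf7 (-1.24), Ly6d (-1.14), Ciita (-0.77), Tcf4 (-0.72) and Sox4 (-1.60). Tnfrsf17 rose less (-0.94). Myeloid genes rose more: Prok2 (2.34), Acod1 (1.92), Cxcr1 (1.77), Wfdc17 (1.69), Csf2rb2 (1.34), Il1r2 (1.33), Clec4e (1.21), Orm1 (0.84), Hdc (0.82) and Vsig4 (1.39). So did the interferon genes Oasl2 (1.45), Oas3 (1.42), Oas1a (1.12), Oas2 (1.08) and Isg15 (1.14), and Mcam (2.36), Upp1 (1.98), Tgm1 (1.88), Ambp (1.49), Stap2 (1.10), Slc2a1 (0.73) and Aldoa (0.52). Stromal and other genes fell more: Bglap2 (-3.13), Bglap (-3.12), Col1a1 (-2.85), Reln (-2.28), 4930426D05Rik (-2.25), Srpk3 (-2.17), Chst3 (-2.09), Scd1 (-1.87), Tnfrsf19 (-1.82), Lgr5 (-1.76), Bmp4 (-1.41), Peg3 (-1.23), Bcl11a (-0.96), Mllt3 (-0.94) and Cdkn1c (-0.69). Of the 51, 22 passed under every alternative tried. Klhl14, Ambp, Oas1a, Bmp4 and Tnfrsf17 were below background in a whole age group of NeuT+ mice, and Peg3 and Vsig4 in most NeuT- mice, so the size of their differences is not measured. Mcam and Cxcr1 were detected in 1 and 2 of 9 NeuT+ mice at 6 weeks, so theirs rest mostly on background levels.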

How the results depend on the processing

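The 5307 calls at 24 against 6 weeks in NeuT+ mice became 4734 to 5898 under the other normalizations, filters, blocks, weights and subsets of series, and 4806 to 5269 with 1 mouse left out. Exceptions were number series 12 alone (3235 calls, 2797 of them shared; fewer samples) and the osteoblast and stroma level as a covariate (2789, 2602 shared). The 547 differences between genotypes became 1117 with number series as a fixed block and 1035 as a random block, 286 with series 13 alone among 24-week NeuT+ mice, 166 with it in both genotypes, and 333 to 855 with 1 mouse left out. Under median scaling 380 differences were called, 31 higher and 349 lower. The 634 calls at 12 against 6 weeks became 329 under median scaling, 361 with the random block, 1103 with array weights, 151 with the immediate early level as a covariate, 92 with the osteoblast and stroma level, 137 without series 17, and 407 to 726 with 1 mouse left out. The 4604 calls at 24 against 12 weeks became 3500 to 5146. Of 118 genes described and called at 24 against 6 weeks, 83 were called under all 31 alternatives and 112 kept their sign. With the osteoblast and stroma level as a covariate the log2 fold change was 0.026 for Col1a1, 1.64 for Ibsp, 0.34 for Sp7, -0.053 for Ier3, -0.41 for Junb and -0.18 for Zfp36; this covariate is built from lists that hold the first 3 of these. Zfp36 was -0.0917 with the fixed block and -0.33 in series 12, and Ltf was 0.45, and called, as the mean of its probes. The cause of the other changes was not tested. The subsets of series 13 and 17 were added after the data were seen. No paired analysis was possible because the labels give no number shared between mice of different groups. Signal limits what can be said of genes below background and of Mpo, Ltf and Camp at the top of the range.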
